A study of Mus musculus with 167 samples.

Results

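Phenobarbital was given for 91 days to mice that carry the human forms of 2 drug-sensing nuclear receptors, CAR, encoded by Nr1i3, and PXR, encoded by Nr1i2, in place of the mouse ones, and the liver transcripts of these mice were set against those of control mice of the same genotype. The animals were chosen by their labels alone, as those of genotype human CAR/PXR sampled after 91 days, which gave 9 of the 167 animals in the series, 4 on phenobarbital and 5 controls. All annotated genes were examined, 18193 in number, each through the probe set with the highest mean over all arrays, and 12622 of them were bright enough to be tested. The series used male C57BL/6 mice from TaconicArtemis that were wild type, lacked both receptors, or were humanized for both, and livers were sampled after 1, 7, 14, 28 and 91 days of phenobarbital and on day 119, when dosing had stopped. The labels of the humanized day 91 animals give an age of 9 to 11 weeks. The text on treatment gives a concentration of 0.05% (wt/vol) phenobarbital in the drinking water. It also lists lower concentrations, down to 0.005%, and a starting age of 8 weeks, and no animal's own label gives a dose. Mice were killed between 9 and 11 in the morning. The other groups used were wild-type mice of day 91 (5 on phenobarbital, 4 controls), mice without CAR and PXR of day 91 (5 and 5), and humanized mice of day 1 (5 and 5). Every humanized animal, treated or control, lacked the mouse receptors, so that all humanized comparisons share that replacement. The sources used here do not say which promoter drives the human genes or in which cells, and the human transcripts were not analysed here.

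CAR and PXR are nuclear receptors of the hepatocyte that sense drugs and bile acids, pair with the retinoid X receptor RXR, and switch on genes for oxidation, conjugation and export of foreign compounds. Phenobarbital, a barbiturate, activates CAR indirectly, by blocking signalling through the epidermal growth factor receptor, so that CAR moves to the nucleus and induces above all the Cyp2b genes. In rodents, long dosing also enlarges the liver and promotes liver tumours, and mice with the human receptors serve to compare the responses of the human and the mouse proteins.

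The 3 Cyp2b genes measured here are shown by their promoters, because they differed in how they answered phenobarbital. Each line holds 300 bases, most of them upstream of the start of the gene, as RefSeq gives them for assembly GRCm38.p6, all on the plus strand of chromosome 7. Capitals mark copies of AGGTCA or AGTTCA, half-sites of nuclear receptors, on either strand.
Cyp2b10, chr7:25897408-25897707: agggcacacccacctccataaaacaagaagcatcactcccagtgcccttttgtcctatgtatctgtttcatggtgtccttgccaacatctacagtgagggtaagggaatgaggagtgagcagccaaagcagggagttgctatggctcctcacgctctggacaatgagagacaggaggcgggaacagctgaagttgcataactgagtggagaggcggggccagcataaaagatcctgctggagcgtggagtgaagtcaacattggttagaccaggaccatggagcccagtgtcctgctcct
Cyp2b13, chr7:26061245-26061544: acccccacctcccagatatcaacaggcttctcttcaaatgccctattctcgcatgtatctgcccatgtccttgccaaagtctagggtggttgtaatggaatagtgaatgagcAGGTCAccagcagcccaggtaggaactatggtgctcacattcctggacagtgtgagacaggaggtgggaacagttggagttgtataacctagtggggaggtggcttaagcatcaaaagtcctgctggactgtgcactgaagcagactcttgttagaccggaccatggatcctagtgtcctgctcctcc
Cyp2b9, chr7:26173159-26173458: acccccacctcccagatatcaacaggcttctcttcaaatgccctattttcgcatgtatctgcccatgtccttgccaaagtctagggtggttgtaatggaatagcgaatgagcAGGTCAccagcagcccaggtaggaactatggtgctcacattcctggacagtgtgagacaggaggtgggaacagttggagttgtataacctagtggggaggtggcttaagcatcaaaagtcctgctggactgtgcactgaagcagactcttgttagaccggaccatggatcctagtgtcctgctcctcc
The Cyp2b13 and Cyp2b9 windows were identical at 298 of 300 aligned positions (99.3%), and that of Cyp2b10 matched each of them at 229 of 314 (72.9%). A half-site was found once in Cyp2b13, once in Cyp2b9 and not in this window of Cyp2b10. Over all genes, 51 of 152 promoters of genes that rose held one (33.6%), as did 25 of 70 of genes that fell (35.7%), 2586 of 10155 of all tested genes (25.5%) and 8217 of 27025 in the whole promoter table (30.4%). Such a match describes letters and is no evidence of binding.

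Values are log2 intensities made by RMA, which narrows differences in weak and in nearly saturated probe sets, and the number of arrays, rather than a read depth, limits their precision. The 9 humanized day 91 arrays were alike in quality, with medians of 5.16 to 5.21 and a mean correlation with their own group of 0.991 to 0.993. No 2 of them were near copies of each other, the SD of their log2 difference over 2706 bright genes being 0.161 to 0.324. As a check of the labels, mouse Nr1i3 read 4.80 to 5.22 in the humanized livers (n = 9) and 4.79 to 5.12 in knockout livers (n = 10), against 8.01 to 8.87 in wild-type livers (n = 9). Mouse Nr1i2 read 3.43 to 4.08 in humanized and 3.45 to 3.77 in knockout livers, against 6.91 to 7.62 in wild-type livers. Both altered genotypes thus lay at the low level that their labels give. Below, values of single animals follow the order 6021, 6022, 6023 and 6025 for phenobarbital and 5021 to 5025 for control, and a difference is phenobarbital minus control, in log2 units with its standard error (SE), from limma's moderated test with p-values adjusted by Benjamini-Hochberg over all tested genes.

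After 91 days on phenobarbital, genes of drug metabolism, above all Cyp2b10, Cyp2c65, Cyp2c55 and Gstm3, stood far higher in humanized livers than in their controls, together with the sulfotransferases Sult2a2 and Sult3a1, the exporter Abcc4, the surface protein gene Prom1 and the non-coding RNA Meg3. The falls were fewer and smaller, led by Cidea, Csad and Obp2a. At an adjusted p under 0.05, 276 genes changed (2.19% of those tested), of which 187 rose (1.48%) and 89 fell (0.705%). Of these, 67 rose and 18 fell by at least 1.5-fold, and 35 rose and 7 fell by at least 2-fold. Phenobarbital and control animals did not overlap in 498 genes (3.95% of those tested), and in 144 of the genes that rose and 64 of those that fell. The median difference of all tested genes was −0.00187. At an unadjusted p under 0.05 in the same fit, 1443 of the 12622 tested genes passed. The unadjusted counts of gene lists below are to be read beside that share. Their counts of called genes are to be read beside the 1.48% of tested genes that rose and the 0.705% that fell. The count of 276 genes leaned on single animals, with 158 genes without animal 6021 and 167 without animal 6025, and a fit on the 9 arrays alone called 89.

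Cyp2b10, the classical target of CAR, encodes a cytochrome P450 that oxidises many drugs. Its level was 12.64, 12.60, 12.44 and 12.84 in phenobarbital livers, against 8.46, 7.82, 8.82, 8.78 and 8.23 in control livers. All 4 treated animals lay close together, well above every control. The difference was 4.21 ± 0.20 (18.5-fold, adjusted p = 3.57e-40). Its neighbour Cyp2b9, which is female-biased in mouse liver, read 7.97, 9.01, 8.77 and 8.88 in phenobarbital livers, against 4.12, 5.18, 7.04, 6.28 and 4.53 in control livers. The control animals spread widely, with animal 5023 highest, but stayed below all treated ones, and the difference was 3.23 ± 0.39 (adjusted p = 1.03e-10). Cyp2b13, also female-biased and almost a twin of Cyp2b9 in the promoter shown above, read 6.24, 6.64, 6.64 and 6.46 in phenobarbital livers, against 4.78, 4.70, 5.20, 5.11 and 4.73 in control livers. It rose less, by 1.60 ± 0.21 (adjusted p = 4.43e-09), again with no overlap. Of the 4 Cyp2a and Cyp2b genes tested these 3 rose and Cyp2a12 differed by 0.00 (adjusted p = 0.992), with a list median of 2.41 beside −0.00187 for all genes. The coding sequences of the family are alike, so that a probe set may carry some signal of a relative.

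Among the Cyp2c genes, which encode P450s that oxidise drugs and fatty acids, Cyp2c65 rose. It read 8.51, 8.28, 7.77 and 8.94 in phenobarbital livers, against 3.81, 3.62, 3.43, 3.39 and 3.41 in control livers. The controls lay below the middle of their arrays, in a range where RMA narrows differences, while every treated animal was in the brighter part. The difference was 4.84 ± 0.17 on this scale (adjusted p = 9.48e-55), and no fold is given against such low values. Cyp2c55 read 12.34, 12.00, 11.94 and 12.67 in phenobarbital livers, against 9.78, 9.40, 9.79, 9.84 and 9.51 in control livers. It was already abundant without the drug, and rose by 2.57 ± 0.17 (5.95-fold, adjusted p = 1.61e-28) with no overlap. Cyp2c54 rose by 1.46 ± 0.13 (adjusted p = 1.69e-17) and Cyp2c37 by 1.09 ± 0.15 (adjusted p = 1.06e-08). In all, 6 of 11 Cyp2c genes tested rose and none fell, with a median of 0.29. The 2 others that rose were Cyp2c50, by 0.68 (adjusted p = 4.22e-13), and Cyp2c29, an abundant P450 and known CAR target, by 0.29 ± 0.07 (adjusted p = 0.00773, or 0.056 without animal 6021 and 0.0738 in the fit on the 9 arrays alone).

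Cyp3a11, the mouse relative of human CYP3A4 and the usual marker of PXR, differed little on this scale. It read 14.51 to 14.58 in phenobarbital and 14.37 to 14.47 in control livers. Both lay near the highest value of all arrays, 15.07, in a range where RMA narrows differences. Cyp3a11 rose by 0.14 ± 0.04 (adjusted p = 0.0251). This call was lost in 8 of 17 alternatives, among them each fit without animal 6022, 6023, 6025, 5021, 5022 or 5023. Cyp3a44, a female-biased member, rose by 0.54 ± 0.12 (adjusted p = 0.0031, or 0.132 without animal 6021 and 0.0711 in the fit on the 9 arrays alone). These were 2 of the 4 Cyp3a genes tested, with a median of 0.15. Of 36 other genes of oxidation and hydrolysis, 9 rose and none fell, and their median was 0.04. They included Cbr3, a carbonyl reductase, which read 8.93, 7.58, 7.80 and 8.62 in phenobarbital livers, against 5.96, 6.94, 5.97, 5.71 and 5.82 in control livers. Control animal 5022 stood apart from the other controls, and yet below every treated animal. Cbr3 rose by 2.15 ± 0.20 (4.44-fold, adjusted p = 3.58e-16). The carboxylesterase gene Ces2a rose by 0.93 ± 0.08 (adjusted p = 4.2e-19), Cyp2g1 by 0.89 ± 0.20 (adjusted p = 0.00211, or 0.0538 without animal 6021), and Cyp1a2, which oxidises caffeine, by 0.59 ± 0.14 (adjusted p = 0.00379).

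**Figure D1:**
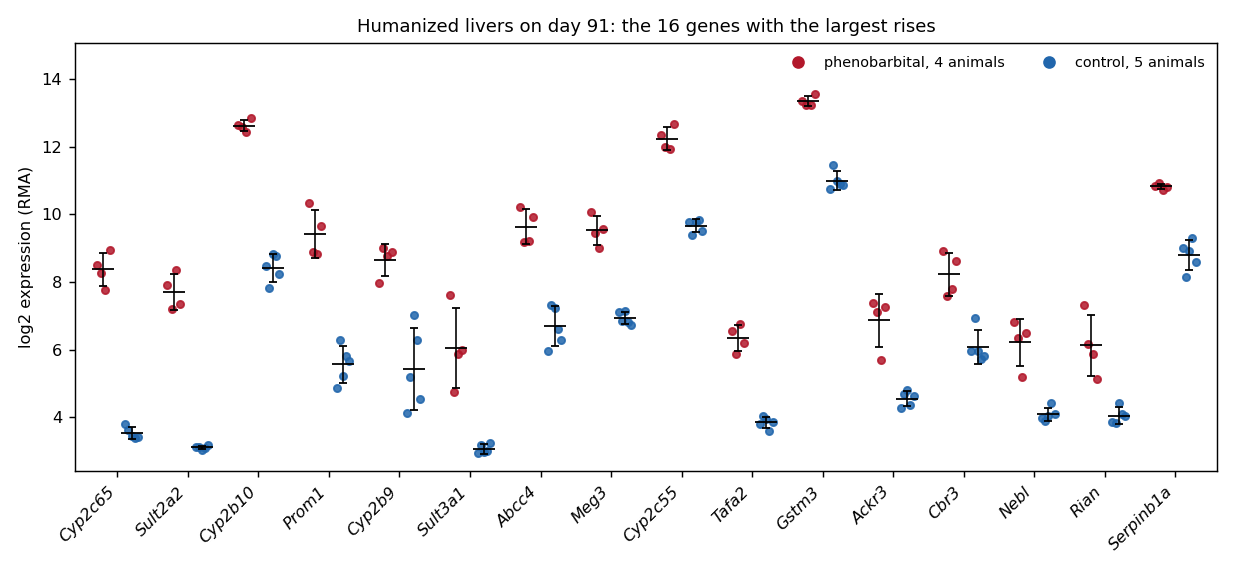
Log2 expression (vertical axis) of the 16 genes with the largest rises among those whose groups did not overlap, in the livers of 4 phenobarbital (left) and 5 control (right) humanized mice of day 91, with 1 point per animal and a bar for the mean ± SD. By this choice all treated animals lie above all controls, and the differences run from 4.84 for Cyp2c65 to 2.04 for Serpinb1a.

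Some conjugation genes rose as well. Gstm3, a glutathione transferase that couples reactive compounds to glutathione, read 13.37, 13.23, 13.23 and 13.55 in phenobarbital livers, against 10.74, 11.47, 10.99, 10.91 and 10.86 in control livers. Every treated animal was above every control, by a difference of 2.35 ± 0.19 (5.1-fold, adjusted p = 2.2e-21). Gstm2 rose by 1.80 ± 0.17 (adjusted p = 3.73e-16), Gstm6 by 0.79 ± 0.13 (adjusted p = 2.43e-06) and Gstt3 by 0.76 ± 0.17 (adjusted p = 0.0021). In all, 8 of 19 glutathione transferase genes tested rose and none fell, with a median of 0.34. Members of the Gstm cluster are close copies, so that their separate values are uncertain. Of 22 genes of glucuronidation and sulfation, 6 rose and none fell, with a median of 0.13. Ugt2b34 and Ugt2b35, glucuronosyltransferases, rose by 0.50 ± 0.06 (adjusted p = 3.17e-10) and 0.41 ± 0.07 (adjusted p = 4.19e-05). Ugt2b35 had an adjusted p of 0.0749 in the fit on the 9 arrays alone. Sult1d1 rose by 0.40 ± 0.12 (adjusted p = 0.0468), which did not pass in 10 of 17 alternatives.

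Sult3a1, a female-biased sulfotransferase, read 7.62, 4.75, 5.87 and 5.98 in phenobarbital livers, against 2.94, 3.19, 2.96, 2.99 and 3.24 in control livers. Animal 6021 was highest and animal 6022 lowest among the treated, while the 5 controls lay near the lowest value of all arrays, 2.11, and the difference on this scale was 2.99 ± 0.32 (adjusted p = 2.49e-13). Sult2a2, a sulfotransferase of bile acids and steroids that was in none of the gene lists, read 7.90, 7.20, 8.35 and 7.34 in phenobarbital livers, against 3.13, 3.11, 3.03, 3.08 and 3.18 in control livers. The control values were as low as those of Sult3a1, and all treated ones were far above them. The difference on this scale was 4.59 ± 0.22 (adjusted p = 7.26e-40), and for both genes no fold is given against such low values. Close Sult2a relatives may contribute to this probe set.

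Of 20 transporter genes of drugs and bile acids, 3 rose and 1 fell, and the median was 0.06. Abcc4, an exporter of conjugates across the sinusoidal membrane, read 10.22, 9.19, 9.21 and 9.93 in phenobarbital livers, against 5.97, 7.33, 7.23, 6.61 and 6.30 in control livers. The lowest treated animals, 6022 and 6023, were still well above the highest control, 5022, with a difference of 2.95 ± 0.18 (7.72-fold, adjusted p = 1.17e-29). The uptake transporter gene Slco1a4 rose by 1.58 ± 0.21 (adjusted p = 2.01e-09) and the exporter gene Abcc3 by 0.49 ± 0.11 (adjusted p = 0.002). Slco1a1, a male-biased uptake transporter, went the other way, with 10.91, 10.41, 10.76 and 10.68 in phenobarbital livers, against 11.88, 11.39, 11.24, 11.56 and 11.94 in control livers. It fell by 0.91 ± 0.13 (adjusted p = 8.04e-08) and the groups did not overlap. Of 12 genes known as targets of the stress sensor NRF2, 3 rose and none fell (median 0.12). They were Nqo1, a quinone reductase, by 0.73 ± 0.14 (adjusted p = 8.28e-05), Srxn1 by 0.43 ± 0.10 (adjusted p = 0.00173, or 0.0752 without animal 6025) and Gsr, glutathione reductase, by 0.31 ± 0.06 (adjusted p = 0.000113). In the fit on the 9 arrays alone Srxn1 and Gsr had adjusted p-values of 0.19 and 0.117. None of 7 haem synthesis genes and none of 15 receptor and partner genes passed the test, with medians of 0.00036 and −0.06 and limma counts of 0 and 2 at an unadjusted p under 0.05.

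Meg3 and Rian are maternally expressed non-coding RNAs of the imprinted Dlk1-Dio3 domain, and both were higher. Meg3 read 10.08, 9.46, 9.01 and 9.57 in phenobarbital livers, against 7.10, 6.85, 7.14, 6.83 and 6.74 in control livers. The control animals lay close together and all treated ones were well above them, animal 6021 highest. The difference was 2.60 ± 0.17 (6.05-fold, adjusted p = 1.33e-28). The other Meg3 probe sets gave differences between −0.04 and 2.59. Rian read 7.32, 6.18, 5.88 and 5.12 in phenobarbital livers, against 3.86, 3.82, 4.42, 4.11 and 4.04 in control livers. Animal 6021 was highest, all treated animals exceeded all controls, and the difference was 2.08 ± 0.24 (adjusted p = 3.86e-12). The controls and treated animal 6025 lay below the middle of their arrays, in a range where RMA narrows differences. The other Rian probe sets, all dim, gave differences of 1.64, 0.43 and 0.15. The remaining member of the domain that was tested, Mirg, differed by 0.19 (adjusted p = 0.438), and the list median was 2.08. Among 11 other imprinted genes 1 rose, Peg3, by 0.59 ± 0.15 (adjusted p = 0.013), with a list median of 0.03. Its adjusted p was 0.103 without animal 6022, 0.085 without 6023 and 0.0929 without 5024, and 0.195 in the fit on the 9 arrays alone. With the mean of its probe sets Peg3 differed by 0.20 (adjusted p = 0.138).

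Several genes outside drug metabolism rose as much as the enzymes. Prom1 encodes prominin-1, also called CD133, a surface protein of progenitor cells. It read 10.33, 8.88, 8.84 and 9.65 in phenobarbital livers, against 4.87, 6.29, 5.22, 5.80 and 5.65 in control livers, a difference of 3.86 ± 0.36 (14.5-fold, adjusted p = 1.02e-16) with no overlap. Of 11 progenitor genes Prom1 alone rose, none fell, and the median was 0.23. Afp, the fetal albumin-like protein in this list, differed by 0.30 (adjusted p = 0.658). Ackr3, an atypical chemokine receptor, read 7.39, 7.13, 5.71 and 7.27 in phenobarbital livers, against 4.26, 4.69, 4.81, 4.38 and 4.62 in control livers. Animal 6023 lay below the other treated animals and still above the controls, and Ackr3 rose by 2.32 ± 0.29 (adjusted p = 3.48e-10). Tafa2, a secreted chemokine-like protein, rose by 2.49 ± 0.33 (adjusted p = 1.67e-09), Nebl, an actin-binding protein, by 2.13 ± 0.22 (adjusted p = 5.09e-14), and Serpinb1a, an inhibitor of neutrophil proteases, by 2.04 ± 0.31 (adjusted p = 2.94e-07). The lack of overlap between the groups was part of the rule by which these 3 genes were named.

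The falls had other functions. Csad, an enzyme of taurine synthesis, read 7.73, 8.17, 8.98 and 7.91 in phenobarbital livers, against 9.76, 10.74, 9.29, 9.27 and 10.69 in control livers. Every treated animal lay below every control, animal 6023 being closest to them, and Csad fell by 1.75 ± 0.33 (3.36-fold lower, adjusted p = 0.000128). Dnase2a, a lysosomal nuclease, read 9.27, 9.53, 10.23 and 9.44 in phenobarbital livers, against 10.94, 11.28, 10.77, 10.59 and 11.60 in control livers, with no overlap, and fell by 1.41 ± 0.27 (adjusted p = 0.000125). Obp2a, a lipocalin, fell by 1.53 ± 0.38 (adjusted p = 0.00707, or 0.0538 without animal 6021 and 0.0791 without 6025). Olig1, a transcription factor gene, fell by 1.07 ± 0.25 (adjusted p = 0.00415, or 0.0568 and 0.0549 without the same animals), and Gnai1, an inhibitory G protein subunit, by 1.04 ± 0.27 (adjusted p = 0.0131, or 0.0921 without 6025).

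Among the smaller falls without overlap, Lrg1, a secreted glycoprotein of the acute phase, fell by 0.85 ± 0.17 (adjusted p = 0.000371) beside a high value in control animal 5023, and Hsd3b5, a steroid dehydrogenase of male mouse liver, by 0.80 ± 0.18 (adjusted p = 0.00173). Fabp2, a fatty acid binding protein, fell by 0.72 ± 0.15 (adjusted p = 0.000834) and Unc13b, a vesicle-priming protein, by 0.71 ± 0.14 (adjusted p = 0.000262). Pltp, which transfers phospholipids between lipoproteins, fell by 0.75 ± 0.21 (adjusted p = 0.0341), but did not pass in 7 of 9 fits that left out 1 animal. The antisense RNA Hectd2os fell by 0.88 ± 0.26 (adjusted p = 0.0478) and did not pass in 11 of 17 alternatives. In the fit on the 9 arrays alone Csad, Lrg1 and Hsd3b5 had adjusted p-values of 0.0526, 0.211 and 0.161.

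**Figure D2:**
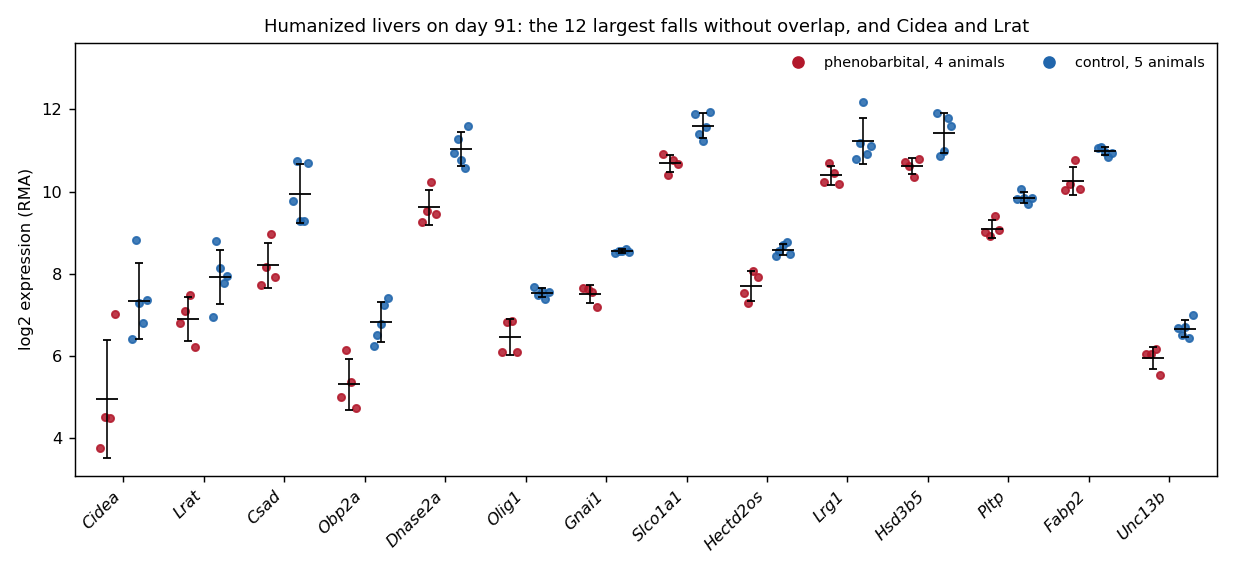
Log2 expression (vertical axis) of Cidea, Lrat and the 12 genes with the largest falls among those whose groups did not overlap, in the livers of 4 phenobarbital (left) and 5 control (right) humanized mice of day 91, with 1 point per animal and a bar for the mean ± SD. Cidea and Lrat are the panels in which the groups overlap.

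Genes that differ between male and female liver were counted next, beside the 1.48% of all tested genes that rose and the 0.705% that fell. Of 10 female-biased genes tested in these male livers, 6 rose and none fell (Cyp2b9, Cyp2b13, Cyp3a44, Sult3a1, Prom1 and Hao2), and the median was 0.70. Hao2, a hydroxyacid oxidase, rose by 0.85 ± 0.20 (adjusted p = 0.00365), or 0.055 without animal 6022 and 0.0571 in the fit on the 9 arrays alone. Cyp2b9, Cyp2b13, Cyp3a44 and Sult3a1 also stand in the drug metabolism lists, and Prom1 in the progenitor list. Of 15 male-biased genes 2 fell, Hsd3b5 and Slco1a1, and none rose, with a median of −0.22. Of 10 genes of growth hormone signalling 1 fell, Igf1, which encodes the hormone's main circulating mediator, by 0.27 ± 0.06 (adjusted p = 0.00188, or 0.103 in the fit on the 9 arrays alone), and the median was −0.11.

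No gene of DNA replication or mitosis passed the test on this day. None of 25 genes of DNA replication and none of 13 mitotic genes passed the test, with medians of 0.06 and −0.02. At an unadjusted p under 0.05 in the same limma fit the counts were 7 and 0, beside 1443 of all 12622 tested genes. Mcm5, a replicative helicase subunit, differed by 0.29 ± 0.22 (adjusted p = 0.71). Mki67, the common marker of cycling cells, differed by −0.06 ± 0.22 (adjusted p = 0.966), Top2a by −0.11 and Cdk1 by 0.11 (adjusted p = 0.923 and 0.887). Of 20 genes of growth control and the G1 phase 2 rose and none fell, with a median of 0.01. Gadd45b, a stress-responsive gene and known CAR target, read 7.35, 6.38, 6.36 and 7.18 in phenobarbital livers, against 5.70, 5.58, 5.63, 5.65 and 5.76 in control livers. The 5 controls lay close together, below all treated animals, and the difference was 1.16 ± 0.16 (2.23-fold, adjusted p = 1.74e-08). Cdkn2c, an inhibitor of G1 kinases, rose by 0.60 ± 0.10 (adjusted p = 4.83e-06), while Ccnd1, cyclin D1, differed by −0.03 (adjusted p = 0.979). Of 14 p53 targets 1 fell, Perp, an apoptosis effector, by 0.47 ± 0.08 (adjusted p = 4.86e-06), and the median was −0.01. None of 10 EGF receptor genes passed the test (median −0.06, 1 at an unadjusted p under 0.05).

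Beta-catenin signalling keeps the perivenous zone of the liver lobule distinct, and 17 of its genes were tested. Cyp1a2 and Lect2, a secreted hepatocyte protein, rose, Lect2 by 0.43 ± 0.10 (adjusted p = 0.004, or 0.108 in the fit on the 9 arrays alone), and Notum, a secreted Wnt inhibitor, fell by 0.33 ± 0.09 (adjusted p = 0.0404, lost in 9 of 17 alternatives). The list median was 0.01. Glul, glutamine synthetase and a usual marker of active beta-catenin, differed by −0.10 (adjusted p = 0.652) and Axin2 by 0.01 (adjusted p = 0.988). None of 13 periportal genes passed the test (median −0.01, 1 at an unadjusted p under 0.05).

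Genes of lipid, sugar and bile acid metabolism were counted beside the 2.19% called among all tested genes. With so low a share, a short list without calls is not evidence of less change. Cidea, a lipid droplet protein, read 3.75, 4.52, 4.49 and 7.03 in phenobarbital livers, against 6.41, 8.82, 7.28, 6.80 and 7.36 in control livers. Treated animal 6025 overlapped the controls, among which animal 5022 was highest. The difference was −2.39 ± 0.50 (adjusted p = 0.000719), or an adjusted p of 0.157 in the fit on the 9 arrays alone. Plin2, which coats lipid droplets, fell by 0.45 ± 0.12 (adjusted p = 0.0127), with 0.286 without animal 6021, 0.0925 without 5025 and 0.151 in the fit on the 9 arrays alone. These 2 were the falls among 23 genes of fatty acid oxidation and PPARα, of which none rose (median −0.10). Only 4 of the 23 were above 0, and 9 had an unadjusted p under 0.05 in the limma fit. None of 18 cholesterol, 19 lipogenic, 17 glucose and 17 bile acid genes passed the test, with medians of −0.06, −0.09, −0.01 and −0.01, and at an unadjusted p under 0.05 the limma counts were 0, 0, 2 and 2. Cyp7a1, which starts the main route of bile acid synthesis, differed by 0.22 ± 0.42 (adjusted p = 0.933). Of 13 retinoid genes Aldh1a1, which makes retinoic acid, rose by 0.17 ± 0.05 (adjusted p = 0.02, or 0.138 without animal 6025 and 0.0709 without 5021) and Lrat, which stores retinol as esters, fell by 1.03 ± 0.28 (adjusted p = 0.0202). Lrat did not pass without animal 6021, 6025, 5022 or 5023, and in the fit on the 9 arrays alone Aldh1a1 and Lrat had adjusted p-values of 0.321 and 0.281. The list median was 0.04.

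Inflammatory and stress genes were counted beside the same share, 2.19% of all tested genes. Of 22 acute phase genes Orm3, an orosomucoid, rose by 1.48 ± 0.18 (adjusted p = 4.18e-11) and none fell. Close Orm copies make the identity of Orm3 uncertain. The list median was −0.10, only 3 of the 22 genes were above 0, and 9 had an unadjusted p under 0.05 in limma. The mean level of the list was 12.07 in control animal 5023, against 10.75 to 11.19 in the other controls. All 9 interferon genes tested were above 0, with a median of 0.31, and 1 rose, Irgm1, by 0.45 ± 0.13 (adjusted p = 0.0313), which was lost in 5 of 9 fits that left out 1 animal and had an adjusted p of 0.255 in the fit on the 9 arrays alone. None of 19 endoplasmic reticulum stress, 11 immediate early, 17 clock or 9 DNA methylation genes passed the test, with medians of −0.05, −0.03, −0.09 and −0.03 and limma counts of 0, 0, 4 and 0 at an unadjusted p under 0.05.

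Markers of liver cell types were compared, since in whole tissue fewer cells of a type and less RNA per cell cannot be told apart. Of 10 hepatocyte markers Apoa1 fell, by 0.15 ± 0.04 (adjusted p = 0.0231, lost without animal 6021, 6025, 5021 or 5025 and at 0.419 in the fit on the 9 arrays alone), and none rose, while Alb, albumin, differed by −0.01 (adjusted p = 0.952). Their mean level was 13.54 to 13.61 in phenobarbital and 13.57 to 13.64 in control livers. None of 12 Kupffer cell, 10 endothelial and 3 cholangiocyte markers passed the test, with limma counts of 0, 1 and 2 at an unadjusted p under 0.05. The Kupffer cell mean was 7.61 to 8.33 in phenobarbital and 7.75 to 8.14 in control livers, the endothelial mean 7.85 to 8.12 in phenobarbital and 7.78 to 8.13 in control livers, and the cholangiocyte mean 5.49 to 6.16 in phenobarbital and 5.23 to 5.68 in control livers. Of 10 stellate cell markers Lrat fell and none rose, with a mean of 7.44 to 7.88 in phenobarbital and 7.60 to 8.12 in control livers. Of 3 adipose markers tested Cidea fell, with a list mean of 4.26 to 6.40 in phenobarbital and 5.57 to 6.41 in control livers. The single erythroid marker tested, Alas2, fell by 0.43 ± 0.10 (adjusted p = 0.00608, or 0.0684 in the fit on the 9 arrays alone). None of 4 T and NK cell, 5 B and plasma cell, 4 neutrophil and 10 acinar pancreas markers passed, with 1, 1, 0 and 0 at an unadjusted p under 0.05. The part of cell makeup in the gene differences was not tested.

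**Figure D3:**
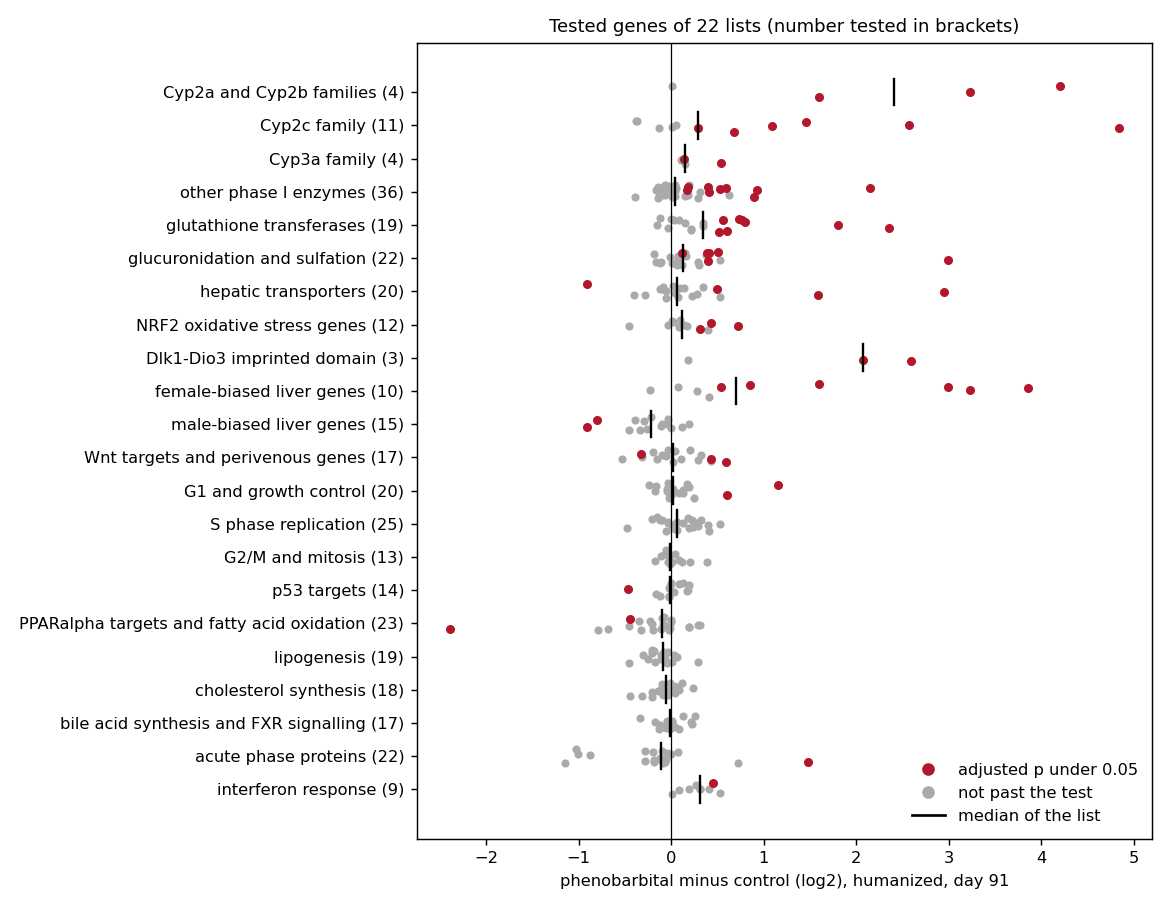
Difference between phenobarbital and control in log2 units (horizontal axis) for the tested members of 22 gene lists in humanized livers of day 91 (4 and 5 animals), with 1 point per gene, red where the adjusted p was under 0.05, and a black line at each list's median. The Cyp2a and Cyp2b list has a median of 2.41 and the Dlk1-Dio3 list of 2.08, and the medians of most other lists lie close to 0.

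The response of humanized mice was then set against that of the wild type on the same day by testing the difference between the 2 effects. The 2 genotypes may also differ in the level and site of receptor expression, which were not analysed here. These cannot be told apart from the form of the receptor. The difference passed for 13 genes (0.103% of those tested), 6 with a higher and 7 with a lower effect in humanized mice, and 2 of them were clones without a gene name, 1810053B23Rik with a difference of 2.69 ± 0.31 and 1700067K01Rik with −1.38 ± 0.19. The count was 20 without humanized control 5025 and 21 without treated wild-type animal 2021. The wild-type effect itself passed for 269 genes (2.13%). Sult2a2 had levels of 7.70 ± 0.53 in humanized and 3.19 ± 0.13 in wild-type phenobarbital livers, and 3.11 ± 0.06 in humanized and 3.07 ± 0.11 in wild-type control livers (mean ± SD, n = 4 and 5, then 5 and 4). The effect was thus 4.59 in humanized and 0.13 in wild-type mice, a difference of 4.47 ± 0.31 (adjusted p = 2.05e-24). Prom1 had an effect of 3.86 in humanized and 1.08 in wild-type mice (difference 2.78 ± 0.51, adjusted p = 0.000377), and Cbr3 of 2.15 in humanized and 0.75 in wild-type mice (difference 1.40 ± 0.29, adjusted p = 0.00465, or 0.112 without animal 6021). Exosc8, a subunit of the RNA exosome, had an effect of 0.68 in humanized and 0.12 in wild-type mice (adjusted p of the difference 0.00836, or 0.0999 without animal 6021, 0.0774 without 6025 and 0.0511 without 5024). With the mean of its probe sets this difference was 0.33 and not called (adjusted p = 0.516). Simc1 had effects of 0.25 in humanized and −0.37 in wild-type mice (adjusted p of the difference 0.0221), a call lost in 8 fits that left out 1 animal.

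Among the weaker effects in humanized mice, some went with lower treated levels and some with higher control levels. Cyp2b13 reached 6.50 ± 0.19 in humanized and 9.62 ± 0.43 in wild-type phenobarbital livers, beside control levels of 4.90 ± 0.23 in humanized and 5.01 ± 0.33 in wild-type mice. Its effect was 1.60 in humanized and 4.61 in wild-type mice, a difference of −3.01 ± 0.30 (adjusted p = 5.8e-14). Sult3a1 likewise had an effect of 2.99 in humanized and 5.13 in wild-type mice (difference −2.14 ± 0.45, adjusted p = 0.00697, or 0.17 without animal 6022). Sult1e1, the oestrogen sulfotransferase, had effects of 0.38 in humanized and 2.26 in wild-type mice (difference −1.88 ± 0.32, adjusted p = 9.81e-05), and Fam171a1 of −0.06 in humanized and 1.24 in wild-type mice (difference −1.31 ± 0.17, adjusted p = 1.03e-08). Cyp2b10 differed in its controls instead. Phenobarbital livers averaged 12.63 ± 0.16 in humanized and 12.75 ± 0.16 in wild-type mice, and control livers 8.42 ± 0.41 in humanized and 7.01 ± 0.36 in wild-type mice, with a difference between the effects of −1.53 ± 0.28 (adjusted p = 0.000563). Cyp2c55 had the same form, with 12.24 ± 0.34 in humanized and 12.22 ± 0.38 in wild-type phenobarbital livers, 9.66 ± 0.20 in humanized and 8.49 ± 0.18 in wild-type control livers, and a difference of −1.15 ± 0.23 (adjusted p = 0.00337).

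Many of the large rises were not shown to differ between these genotypes. The effect on Cyp2b9 was 3.23 in humanized and 3.36 in wild-type mice (difference −0.13 ± 0.56, adjusted p = 0.983). The differences were −0.11 ± 0.23 for Meg3, −0.08 ± 0.33 for Rian and −0.11 ± 0.26 for Abcc4, whose wild-type effects were 2.70, 2.15 and 3.05, with adjusted p-values of 0.971, 0.983 and 0.972. Cyp2c65 missed the threshold, with a difference of −0.99 ± 0.24 (adjusted p = 0.0528), and so did Slco1a4 with 1.18 ± 0.29 (adjusted p = 0.0653). In a fit on the compared groups alone, Cbr3, Cyp2c55, Exosc8, Sult1e1 and Sult3a1 lost their call.

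**Figure D4:**
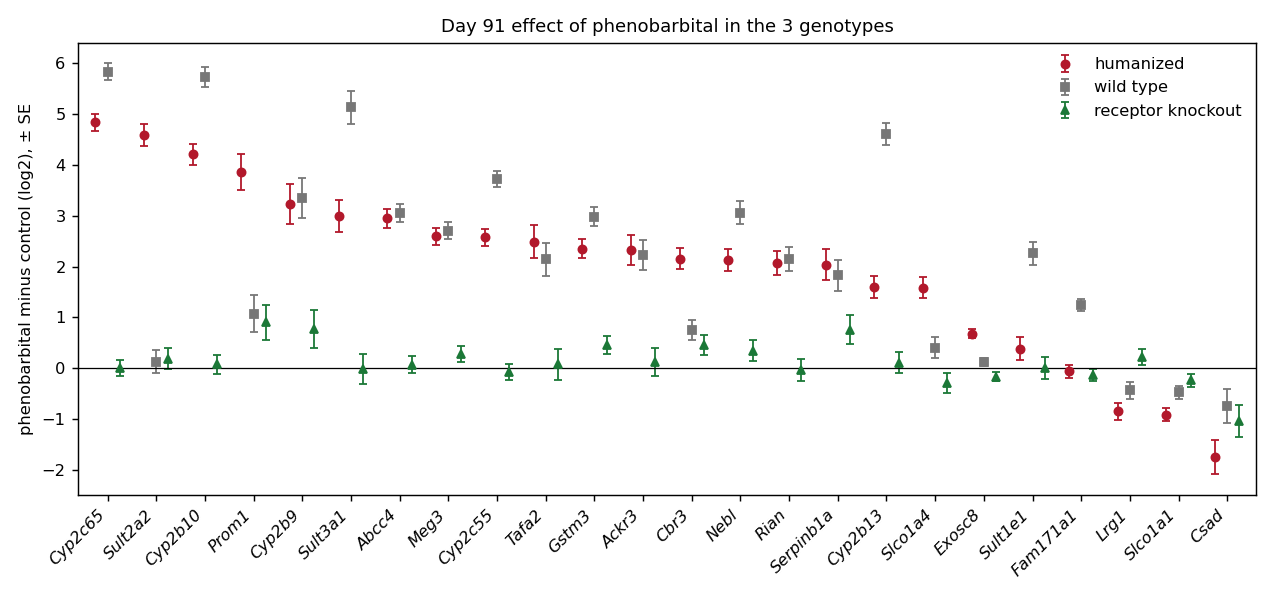
Phenobarbital minus control difference on day 91 in log2 units (with SE bars) for 24 genes in humanized mice (4 and 5 animals), wild-type mice (5 and 4) and mice without CAR and PXR (5 and 5). Sult2a2 has 4.59 in humanized and 0.13 in wild-type mice, Cyp2b13 has 1.60 in humanized and 4.61 in wild-type mice, and Cyp2b10 and Cyp2c65 are near 0 in the knockout.

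Set against mice without either receptor, 110 genes differed in effect (0.871% of those tested), 85 with a higher and 25 with a lower effect in humanized mice. In the knockout itself 435 genes passed (3.45%), with 111 higher and 324 lower, 1 of its treated arrays being nearly identical to a treated knockout array labelled day 28. Cyp2c65 had an effect of 4.84 in humanized and 0.00 in knockout mice (difference 4.84 ± 0.23, adjusted p = 1.17e-39). Cyp2b10 had 4.21 in humanized and 0.08 in knockout mice (difference 4.13 ± 0.28, adjusted p = 1.76e-26), and Sult2a2 4.59 in humanized and 0.19 in knockout mice (difference 4.41 ± 0.31, adjusted p = 2e-25). The differences for Sult3a1, Prom1 and Abcc4 were 3.01 ± 0.44, 2.96 ± 0.49 and 2.88 ± 0.25. On the lower side stood Wfdc2, a secreted protease inhibitor, with −1.08 ± 0.28 (adjusted p = 0.0244), Lrg1 with −1.07 ± 0.23 (adjusted p = 0.00382), Gpc1, a heparan sulfate proteoglycan, with −0.91 ± 0.23 (adjusted p = 0.024), Oasl1, an interferon-induced gene, with −0.73 ± 0.20 (adjusted p = 0.0371), Smim3 with −0.71 ± 0.16 (adjusted p = 0.00477) and Slco1a1 with −0.68 ± 0.18 (adjusted p = 0.0402). Gpc1, Oasl1 and Slco1a1 lost this call without the near-identical pair (adjusted p = 0.0568, 0.0944 and 0.108) and each in several fits that left out 1 animal. Wfdc2 lost it in 7 fits that left out 1 animal, with adjusted p-values of 0.0504 without knockout control 3021 to 0.118 without treated knockout animal 4021. With only the compared groups in the fit all 6 of these lower genes lost the call, with adjusted p-values of 0.218 for Lrg1, 0.0602 for Smim3, 0.293 for Wfdc2, 0.334 for Gpc1, 0.269 for Oasl1 and 0.318 for Slco1a1.

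Some day 91 effects passed the test in knockout mice as well. Cyp1a2 had an effect of 0.59 in humanized and 0.70 in knockout mice (adjusted p = 0.00379 and 0.00087). For Csad the effects were −1.75 in humanized and −1.03 in knockout mice (adjusted p = 0.000128 and 0.0443), for Orm3 1.48 in humanized and 0.76 in knockout mice (adjusted p = 4.18e-11 and 0.0049), and for Cyp3a11 0.14 in humanized and 0.13 in knockout mice (adjusted p = 0.0251 and 0.0207). Treated and control knockout livers overlapped for Cyp1a2, with 12.25 to 13.87 against 11.53 to 12.54. They also overlapped for Cyp3a11, with 14.32 to 14.40 against 13.90 to 14.37. The comparisons with wild type, with knockout and with day 1 all contain the same 9 humanized arrays, so that they are not independent of each other.

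The last comparison asked which effects of day 91 differ from those of the first day of dosing in humanized mice. On day 1 itself, 1480 genes passed (11.7% of those tested). The effect differed between the days in 220 genes (1.74%), with 176 higher and 44 lower on day 91. That count was 90 without animal 6022, 119 without 5022, 126 without 6003 (a treated animal of day 1), 135 without 5024 and 29 in a fit on the 4 groups alone. Cyp2b10, Cyp2c55, Gstm3 and Gadd45b, all higher on day 1 already, did not pass this test. Cyp2b10 had effects of 4.38, 4.72, 5.10, 5.16 and 4.21 on days 1, 7, 14, 28 and 91, and the day 91 minus day 1 difference was −0.18 ± 0.28 (adjusted p = 0.817). For Cyp2c55, Gstm3 and Gadd45b these differences were −0.13, −0.09 and 0.21 (adjusted p = 0.835, 0.909 and 0.704).

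Sult2a2 was at the other extreme, with effects of 0.11, 0.61, 1.74, 2.97 and 4.59 on the same days and a difference of 4.48 ± 0.31 (adjusted p = 1.5e-25). Meg3 had effects of −0.15, 0.65, 1.54, 2.27 and 2.60, larger on each later day, and differed by 2.75 ± 0.23 (adjusted p = 2.72e-19). Rian followed the same order with −0.06, 0.32, 1.14, 1.93 and 2.08 (difference 2.14 ± 0.32, adjusted p = 1.86e-06), as did Cyp2b9 with 0.37, 1.36, 1.44, 2.91 and 3.23 (difference 2.86 ± 0.54, adjusted p = 0.000337) and Cyp2b13 with 0.00, 0.18, 0.28, 0.90 and 1.60 (difference 1.59 ± 0.29, adjusted p = 0.000234). Prom1 and Sult3a1 were largest on day 28, at 4.49 and 3.69, and their day 91 effects exceeded those of day 1 by 2.70 ± 0.49 and 2.74 ± 0.44 (adjusted p = 0.000204 and 7.45e-06). Cyp2c65 and Abcc4, already induced on day 1, rose further by 2.08 ± 0.23 and 1.24 ± 0.25 (adjusted p = 1.11e-11 and 0.00146). Tafa2 differed by 2.62 ± 0.45 (adjusted p = 3.45e-05, or 0.0824 with only the compared groups in the fit).

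Lower effects on day 91 included genes of the clock. Dbp, a transcription factor whose level follows the time of day, had an effect of 2.73 on day 1 and −1.73 on day 91 (difference −4.46 ± 0.94, adjusted p = 0.00229), and Per3, a clock component, differed by −1.02 ± 0.26 (adjusted p = 0.0165). Of the 17 clock genes 2 more differed, in the other direction, Cry1 by 1.38 ± 0.28 and Nfil3 by 1.36 ± 0.30 (adjusted p = 0.0018 and 0.00396). Me1, malic enzyme, differed by −1.50 ± 0.32 (adjusted p = 0.00238), Tlcd2 by −0.91 ± 0.17 (adjusted p = 0.000234) and Slco1a1 by −0.78 ± 0.18 (adjusted p = 0.00838, or 0.0548 without animal 6022). Per3 had 0.0516 without animal 6003 and 0.0613 without 6023. With only the compared groups in the fit the 4 clock genes lost the call, with adjusted p-values of 0.115 for Dbp, 0.143 for Per3, 0.105 for Cry1 and 0.208 for Nfil3, and so did Slco1a1 with 0.121 and Cidea with 0.164. Cidea differed by −2.38 ± 0.69 (adjusted p = 0.0459, lost in most alternatives, with 0.143 without animal 6021), with effects of −0.01 on day 1 and −2.39 on day 91 beside control levels of 3.74 ± 0.16 on day 1 and 7.33 ± 0.92 on day 91. The high level was thus in the day 91 controls, while wild-type controls of that day had 4.30 ± 0.23 and knockout controls 5.27 ± 1.67. Replication genes, of which 9 of 25 rose on day 1 and none on day 91, had 0 differences between the days that passed in limma and 4 at an unadjusted p under 0.05.

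On day 119, after dosing had stopped, these genes were nearer to their controls. The phenobarbital minus control difference was −0.81 for Cyp2b10, which thus lay below its controls. It was 0.26 for Cyp2c65, 0.03 for Sult2a2, 0.05 for Prom1 and −0.03 for Meg3. Treated arrays 6026 and 6030 of that day were near copies and entered as their average.

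**Figure D5:**
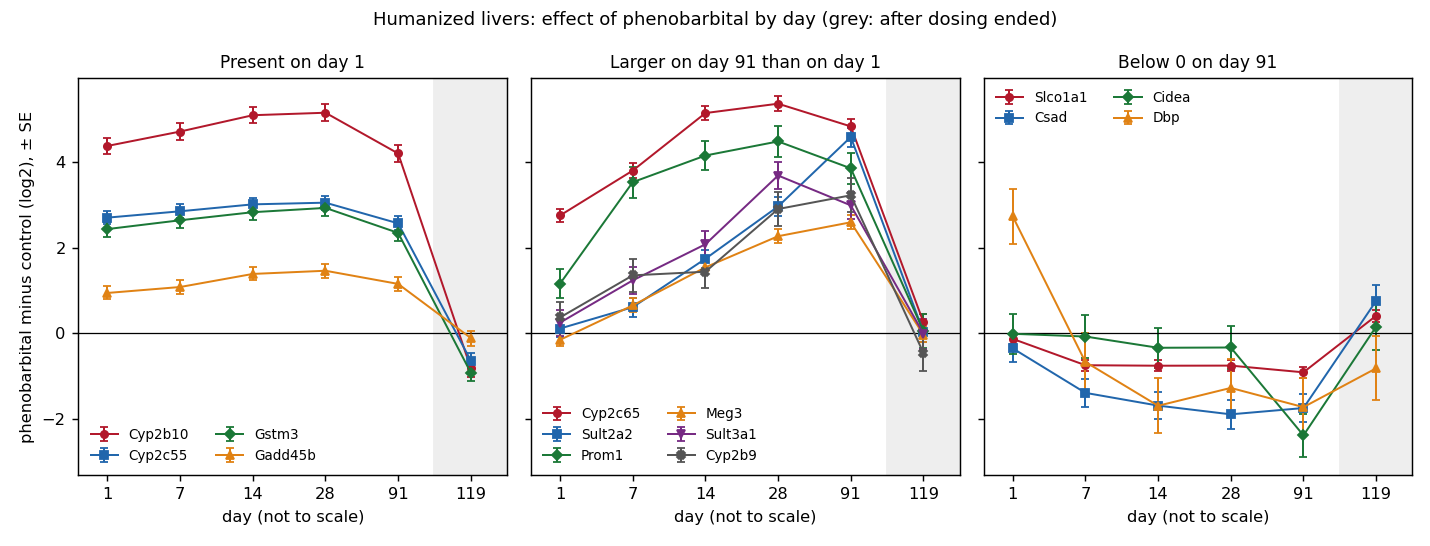
Phenobarbital minus control difference in log2 units (vertical axis) in humanized mice on days 1, 7, 14, 28, 91 and 119 (horizontal axis, not to scale, grey after dosing), for genes in 3 panels. Cyp2b10 is at 4.38 on day 1 and 4.21 on day 91, Sult2a2 is at 0.11 and 4.59, and every gene shown is nearer 0 on day 119 than on day 91.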

How the data were processed

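Liver RNA was measured on Affymetrix mouse arrays, 1 per animal, and the labels gave each animal's genotype, treatment, day and number. The deposited values are log2 expression per probe set, made by the authors with RMA, per the submitters' processing notes. The version of RMA is not given in the sources used here, nor whether it was run on all arrays at once. Replicates are separate animals, per the labels. The table held 45101 probe sets, of which 34958 had 1 gene symbol in the platform annotation, 932 several and 9211 none, with 0 unused sample columns. Only probe sets with 1 symbol were kept, without the 64 controls of the manufacturer. The probe set with the highest mean over all arrays stood for a gene, and 5571 genes that were above the array median on fewer than 3 arrays were left out as dim.

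Tests used limma 3.58.1 in R 4.3.3 (lmFit, eBayes, two-sided) on 36 group means over 166 samples, with 130 residual degrees of freedom and a prior of 3.98. All groups entered 1 model, which assumes that they vary alike. Humanized day 119 arrays 6026 and 6030 were near copies with 1 set of labels and were averaged. Knockout arrays 4019 (day 28) and 4024 (day 91) were near copies with different labels and were kept as labelled. Within each comparison p-values received Benjamini-Hochberg adjustment, and genes were called under 0.05. The alternatives were another probe set summary, no or another filter on dim genes, quantile normalization, a trended and robust prior, only the compared groups, both treatments of near-identical arrays, and each animal left out. The fit was tested on simulated data in which each gene had the same spread in every group. That test cannot show whether the real groups vary alike.

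Genes were named by a rule, which gave 87, made of 20 fixed genes, the 16 largest rises and 12 largest falls without overlap, the 6 largest differences each way in the 3 other comparisons, and up to 4 changed members of each of 46 gene lists. Another 15 were named after their values were seen, in part to complete short counts. The 46 lists held 679 genes, of which 549 were tested and 130 not analysed here. The groups, genes and lists were chosen with earlier results of these data known. Promoters are from RefSeq's GRCm38.p6 and were aligned globally with Biopython 1.88.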

Additional observations from a re-analysis of the deposited data

Results flagged for a closer look

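In 12 of 172 sets of values, each of 1 named gene in 1 group of humanized day 91 livers, 1 animal stood apart from the others by Dixon's test, and chance alone gives such a gap in about 1 set in 20. Among the treated animals, Mcm5 was 6.13 in animal 6022 against 6.94 to 7.09 in the others, Ackr3 was 5.71 in animal 6023 against 7.13 to 7.39, Abcc3 was 11.19 in animal 6022 against 10.91 to 10.94, Plin2 was 11.76 in animal 6021 against 12.21 to 12.24, and Alas2 was 8.80 in animal 6023 against 8.55 to 8.59. Among the controls, animal 5022 stood apart in Cbr3 with 6.94 against 5.71 to 5.97, in Cyp2c54 with 11.46 against 11.98 to 12.16 and in Ces2a with 11.56 against 12.03 to 12.21. Control animal 5023 had 12.19 for Lrg1, against 10.80 to 11.19, and 12.47 for Tfr2, against 12.10 to 12.18. Control animal 5024 had 6.21 for Cyp3a44, against 6.00 to 6.05, and 11.63 for Sult1d1, against 11.42 to 11.47.

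The day 91 effect differed between humanized and wild-type mice, by a test of the difference, in these named genes. It was higher in humanized mice by 4.47 for Sult2a2, 2.78 for Prom1, 2.69 for the clone 1810053B23Rik, 1.40 for Cbr3, 0.62 for Simc1 and 0.55 for Exosc8. The difference was −3.01 for Cyp2b13, −2.14 for Sult3a1, −1.88 for Sult1e1, −1.53 for Cyp2b10, −1.38 for the clone 1700067K01Rik, −1.31 for Fam171a1 and −1.15 for Cyp2c55. Against knockout mice the differences were 4.84 for Cyp2c65, 4.41 for Sult2a2, 4.13 for Cyp2b10, 3.01 for Sult3a1, 2.96 for Prom1 and 2.88 for Abcc4, and on the lower side −1.08 for Wfdc2, −1.07 for Lrg1, −0.91 for Gpc1, −0.73 for Oasl1, −0.71 for Smim3 and −0.68 for Slco1a1.

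Between day 91 and day 1 in humanized mice the effects differed by 4.48 for Sult2a2, 2.86 for Cyp2b9, 2.75 for Meg3, 2.74 for Sult3a1, 2.70 for Prom1, 2.62 for Tafa2, 1.38 for Cry1 and 1.36 for Nfil3. They differed by −4.46 for Dbp, −2.38 for Cidea, −1.50 for Me1, −1.02 for Per3, −0.91 for Tlcd2 and −0.78 for Slco1a1.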

How the results depend on the processing

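No called result changed its direction under the alternatives that were run, while differences close to 0 that were not called, such as those of Mki67 and Cyp7a1, changed sign under some. Of the 77 named genes called in phenobarbital against control, 42 were called under every alternative in which they were tested. The other 35 were lost under at least 1. Among the 42, Rian and Sult3a1 were tested in 16 of the 17 alternatives only. With only the compared groups in the fit, the called genes were 89 in place of 276 for phenobarbital against control, 34 in place of 110 for humanized minus knockout and 29 in place of 220 for day 91 minus day 1, a fit with fewer samples to estimate the spread. Leaving out 1 animal gave 158 (without 6021) to 300 (without 6023) genes for phenobarbital against control, 10 (without 6021) to 21 (without wild-type animal 2021) for humanized minus wild type, where 13 were called, 80 to 130 for humanized minus knockout and 90 (without 6022) to 312 (without 6025) for day 91 minus day 1. The wild-type comparison gave 20 genes without 5025. Named genes lost without 1 animal numbered 4 to 18, most of them without animal 6025 or 6021. The cause of these losses was not tested. Where a probe set is dim, the RMA scale narrows its differences. No paired analysis was possible because each animal number belongs to 1 animal only and is shared by no groups.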

Other observations

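Iron-related genes not covered above were among those called, and were chosen here after their values were seen. Hamp2, a relative of the iron hormone hepcidin, read 12.11, 12.17, 12.24 and 12.08 in phenobarbital livers, against 10.79, 10.81, 11.13, 10.86 and 10.53 in control livers. The groups did not overlap, and Hamp2 rose by 1.32 ± 0.32 (2.5-fold, adjusted p = 0.00549), called in all 17 alternatives. The difference was 0.64 as the mean of its probe sets, the dim second one showing −0.05, and its close relative Hamp may share signal. Tfrc, the transferrin receptor, read 10.99, 9.85, 9.31 and 10.98 in phenobarbital livers, against 9.48, 9.91, 9.12, 9.46 and 9.18 in control livers. Animals 6021 and 6025 were high and the other 2 treated animals lay among the controls, so that the difference of 0.85 ± 0.23 (adjusted p = 0.0232) had an adjusted p of 0.386 without animal 6021, 0.287 without 6025 and 0.41 in the fit on the 9 arrays alone. With the mean of its probe sets Tfrc differed by 0.37 (adjusted p = 0.0703). Tfr2, the second transferrin receptor, fell by 0.20 ± 0.06 (adjusted p = 0.0451), lost in 9 of 17 alternatives.

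Other rises chosen in the same way were in genes of organic anion transport and of other roles. Slc22a27 rose by 0.92 ± 0.19 (adjusted p = 0.000473) and Slc22a29 by 0.94 ± 0.21 (adjusted p = 0.00206). In the fit on the 9 arrays alone their adjusted p-values were 0.127 and 0.0548, and these close relatives may share signal. Meig1, a gene of sperm formation, read 7.52, 6.58, 6.85 and 7.37 in phenobarbital livers, against 5.06, 4.87, 5.58, 5.61 and 5.39 in control livers, and rose by 1.78 ± 0.21 (adjusted p = 1.13e-11) with no overlap. Its effect differed from that in knockout mice by 1.86 ± 0.28 (adjusted p = 9.64e-07). Ndrg1, a stress-responsive gene, rose by 1.00 ± 0.26 (adjusted p = 0.0173, or 0.0819 without animal 6025 and 0.0536 without 5024).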
